A study of Mus musculus with 2 samples.

Results

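The S100 genes encode small calcium-binding proteins, and 10 of them were followed here: S100a1, S100a3, S100a4, S100a6, S100a8, S100a9, S100a10, S100a11, S100a13 and S100a16. They were chosen by name, taking each probe set of the array that names one of these genes alone. This gave 13 probe sets for 9 genes, out of 18193 genes measured. S100a11 had no probe set of its own and has no value here. RNA came from PGK12.1, a female mouse embryonic stem cell line derived from blastocysts of a 129 female and a (129 X PGK)F1 male, used at passages 14 to 18. One array held undifferentiated cells (day 0), and the other held PGK12.1 cells differentiated for 15 days as embryoid bodies, aggregates in which stem cells form derivatives of several germ layers. Both samples started from cultures kept on fibroblast feeders in medium with leukemia inhibitory factor, and the feeders were depleted on gelatin beforehand. The study set out to follow X-linked expression through differentiation, so these S100 genes, which lie on chromosome 3, were outside its main question.

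S100 proteins carry a pair of EF-hands, helix-loop-helix motifs that hold calcium, and most work as dimers. Calcium opens a surface through which the dimer grips a target such as an annexin, a myosin heavy chain or a ubiquitin ligase adaptor. Some S100 proteins are also released from cells and act on receptors such as RAGE and TLR4. Several members mark particular cells: S100a4 is known from motile mesenchymal cells, S100a8 and S100a9 from neutrophils, S100a1 from heart and skeletal muscle.

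Values are signal intensities on the deposited linear scale. Differences are those of log2(signal + 16), day 15 minus undifferentiated, and a gene was called higher or lower from a difference of 1 (2-fold on that scale). Counts of genes past 2-fold use that scale. Folds are ratios of the signals themselves. The highest bacterial control probe set for which no target was seen read 35.6. A fold whose dimmer signal lay under this bound was computed against 35.6 and is written as a minimum, and no fold was computed when neither signal reached it. A dim gene can therefore pass the call while its minimum fold is under 2. Since 16 is added before the log2, a gene can also miss the call with a fold above 2. With 1 array per condition there was no replicate error and no test, so each difference describes this pair of RNA samples. Yardsticks of size came from the arrays themselves. Among probe sets above the low-signal filter described below, the log2 differences within a gene had an SD of 0.53 over 5157 genes. For 18 hybridization controls the log2 ratio of the signals, without 16 added, had an SD of 0.11 around a mean of 0.39. These controls were thus shifted upward on the day 15 array. The 4 stem cell markers Pou5f1, Esrrb, Zfp42 and Tdgf1 out of 6 were at least 2-fold lower at day 15, and all 6 still read above the bound.

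The S100 genes split into 3 sets at day 15: 5 were higher, S100a16 was somewhat lower, and S100a3, S100a8 and S100a9 gave no signal above the control bound on either array. S100a4, S100a6, S100a1, S100a10 and S100a13 were at least 2-fold higher, which is 5 of the 9 measured genes (55.6%), and 0 of 9 were at least 2-fold lower. Among all 18193 measured genes, 12.8% were at least 2-fold higher and 7.56% at least 2-fold lower. A filter on low signal (mean log2 value no lower than the median probe set, a signal of about 36.5) kept 6 of the 9, S100a1 only through its day 15 signal, and of the genes above it 16.5% were higher and 8.41% lower. The median log2 difference was 1.30 over the 9 measured S100 genes and -0.02 over all measured genes.

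**Figure D1:**
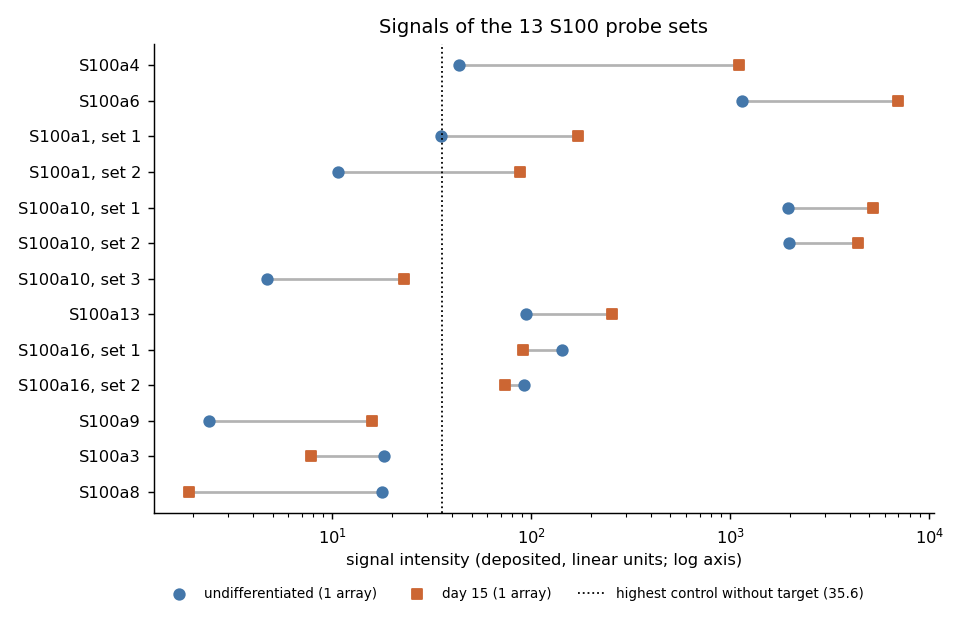
Signal intensity (log axis) of each of the 13 S100 probe sets on the undifferentiated array (circles) and the day 15 array (squares), joined by a line. Where a gene has several probe sets, set 1 is the brightest; the dotted line marks the control bound of 35.6, and all signals of S100a9, S100a3 and S100a8 lie to its left.

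Upstream sequence is shown for S100a4 and S100a6, the genes with the largest gains, for S100a8, which lies close by and gave no signal above the bound, and for the stretch shared by S100a1 and S100a13. Sequences are RefSeq's for build GRCm38.p6, and the array files name no build of their own. For the first 3 genes, the 250 bases before the annotated start are given 5′ to 3′ on the gene's strand, with TATAAA in capitals. They lie at chr3:90603520-90603769, plus strand, at chr3:90612644-90612893, plus strand, and at chr3:90668821-90669070, plus strand.
S100a4: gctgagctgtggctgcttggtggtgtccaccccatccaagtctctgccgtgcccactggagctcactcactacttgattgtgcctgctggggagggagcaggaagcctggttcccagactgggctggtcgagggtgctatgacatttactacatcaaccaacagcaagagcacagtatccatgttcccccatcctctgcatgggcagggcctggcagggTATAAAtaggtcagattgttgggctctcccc
S100a6: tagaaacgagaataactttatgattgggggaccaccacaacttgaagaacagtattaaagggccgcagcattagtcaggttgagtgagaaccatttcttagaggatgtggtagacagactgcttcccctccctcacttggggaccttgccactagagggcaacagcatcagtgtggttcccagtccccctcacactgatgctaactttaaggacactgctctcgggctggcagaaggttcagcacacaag
S100a8: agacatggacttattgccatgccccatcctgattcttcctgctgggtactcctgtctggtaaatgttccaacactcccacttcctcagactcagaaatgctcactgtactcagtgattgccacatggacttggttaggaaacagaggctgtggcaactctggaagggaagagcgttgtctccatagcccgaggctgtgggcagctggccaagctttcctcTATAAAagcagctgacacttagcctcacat
TATAAA, searched on both strands, begins 31 bases before the start of S100a4 and 30 before that of S100a8. The letters TATAAA were absent from this window of S100a6. Among 32851 windows of the same length, 12.4% hold TATAAA. The gene with the largest gain and a gene without signal above the bound both carry the motif, at nearly the same distance.

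S100a1 and S100a13 start head to head on opposite strands, with 104 bases between the starts of the same table at chr3:90514331-90514434. The stretch is printed on the plus strand, the direction of S100a13, with CG pairs in capitals.
S100a1/S100a13: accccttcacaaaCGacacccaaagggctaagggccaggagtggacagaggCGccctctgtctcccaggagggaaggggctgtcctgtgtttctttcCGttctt
It holds 3 CG pairs and 58.7% G or C. Among all windows GGGCGG was found in 32.7% and TGANTCA in 6.75%, each searched on both strands. Neither was found in the windows of S100a1, S100a4, S100a6, S100a8 or S100a13. Windows of other members did hold them: GGGCGG lies before starts of S100a3, S100a9, S100a11 and S100a16, and TGANTCA before starts of S100a11 and S100a16. TATAAA also begins 52 bases before an annotated start of S100a3. S100a10 is not listed in the promoter table.

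S100a4, also called metastasin or fibroblast-specific protein, binds the heavy chain of non-muscle myosin IIA and is known from migrating mesenchymal cells. Its single probe set read 43.3 in undifferentiated cells and 1099 at day 15. The undifferentiated signal lay just above the control bound, and the day 15 signal was 25.4-fold higher (log2 difference 4.23). This was the largest difference among the S100 genes and ranked 117 from the top among 18193 genes.

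S100a6, or calcyclin, binds annexins and the ubiquitin ligase adaptor CACYBP. It read 1140.1 in undifferentiated cells and 6983 at day 15, so it was already well above the bound in stem cells. The gain was 6.12-fold (log2 difference 2.60), and the gene ranked 473 from the top. S100a4 and S100a6 therefore both gained, one from a signal near the bound and the other from a bright one.

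S100a10, or p11, is unusual in the family because its EF-hands no longer bind calcium, and it sits in a stable complex with annexin A2. Its brightest probe set read 1947 in undifferentiated cells and 5200.1 at day 15, a gain of 2.67-fold (log2 difference 1.41). A second bright probe set read 1969 and 4386, a gain of 2.23-fold (1.15). The remaining probe set read 4.7 and 22.8, below the bound on both arrays. The bright probe sets differed from each other by less than the SD between probe sets of one gene.

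S100a1, the muscle member that binds the ryanodine receptor in heart, was low in stem cells on both of its probe sets. The brighter read 35.1 on the undifferentiated and 172 on the day 15 array, at least 4.82-fold higher (log2 difference 1.88). The other read 10.6 and 87.9, at least 2.47-fold higher (1.97). S100a13, which takes part in the unconventional release of the growth factor FGF1, read 93.5 and 254 on its only probe set, a gain of 2.72-fold (1.30). The head-to-head neighbours were thus both higher at day 15.

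S100a16, a widely expressed member, was the only S100 gene above the bound on both arrays that did not gain. Its probe sets read 142 and 90.8, and 92.3 and 74.0, so it was 1.57-fold and 1.25-fold lower at day 15 (log2 differences -0.57 and -0.27). Neither reached 2-fold.

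S100a8 and S100a9 form calprotectin, the abundant calcium- and zinc-binding complex of neutrophils. S100a8 read 17.8 in undifferentiated cells and 1.9 at day 15, and S100a9 read 2.4 and 15.8. S100a3, a cysteine-rich protein of the hair cuticle, read 18.1 and 7.8. All 6 of these signals were below the bound of 35.6, so their log2 differences of -0.92, 0.79 and -0.52 say nothing of direction.

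The scaling of the arrays mattered for the smaller gains. On all genes above the filter, quantile normalization moved the median difference to -0.13 and scaling on the hybridization controls to -0.36, and the share of higher genes among those past 2-fold went from 66.3% as deposited to 54.6% and 37.7%. S100a4 stayed at 3.85 or above, S100a6 at 2.21 or above and S100a1 at 1.52 or above under these scalings. S100a10 was at 1.53 with quantile normalization and 1.02 with control scaling, on its brightest probe set. Control scaling lowered that probe set from 1.41, and a like shift would take the second bright one, at 1.15 as deposited, short of the call. The S100a10 call under control scaling thus rests on the choice of probe set. S100a13 was at 0.99 and 0.94, short of the 2-fold call, which leaves 4 genes called higher under each. Of all genes above the filter, 13.8% were higher and 11.4% lower with quantile normalization. With control scaling 11.3% were higher and 18.8% lower. S100a16 was at -0.88 and -0.89.

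**Figure D2:**
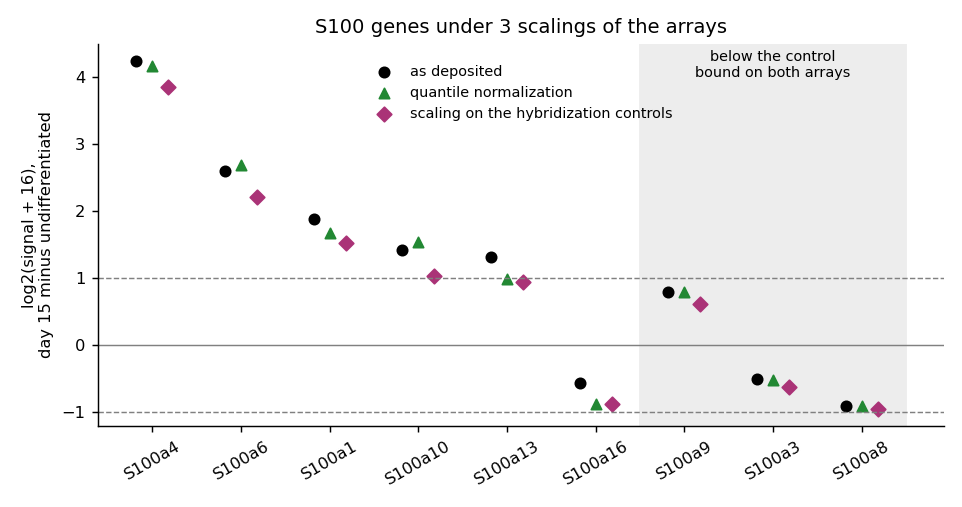
Difference of log2(signal + 16), day 15 minus undifferentiated, for the 9 measured S100 genes as deposited (circles), after quantile normalization (triangles) and after scaling on the hybridization controls (diamonds). Dashed lines mark 2-fold; S100a13 alone crosses the upper line between scalings, and the 3 genes on the grey ground lie below the control bound on both arrays.

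Of 7 further S100 genes 5 were measured, and S100a14, S100a7l2 and S100b lay below the bound on both arrays. S100a7l2, a relative of the skin protein psoriasin, read 1.8 and 2.1, and S100b, the astrocyte member, read 12.8 and 15.1 on its brighter probe set. S100g, which encodes the calcium transport protein calbindin-D9k, read 0.9 and 45.9, and was the only 1 of the 5 called higher, with a fold against the bound of at least 1.29. S100a5 read 43.1 and 29.6. S100a7a and S100z had no probe set that named them alone.

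Genes that were higher and genes near or below the bound alternated along chromosome 3. In RefSeq gene order, S100a5 lies between S100a4 and S100a6, and it read 29.6 at day 15, while its neighbours read 1099 and 6983. S100a3 lies on the other side of S100a4, at 18.1 and 7.8. S100a14, below the bound, and S100a16, somewhat lower at day 15, follow S100a1 and S100a13. S100a8, S100a9 and S100a7l2 close this first block below the bound. S100a10 lies apart from the other measured S100 genes of chromosome 3. Between them is the run of genes for the cornified envelope of skin, here called the epidermal differentiation complex. S100a11, which has no value here, is not in the first block either, since its upstream window begins at chr3:93520246.

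Genes of that complex were counted by symbol alone, those starting with Lce, Sprr, Lor, Ivl, Flg, Hrnr, Rptn, Tchh or Pglyrp. Of the 31 measured genes so counted, 20 were below the bound on both arrays. At day 15, 4 were called higher (12.9%, against 12.8% of all measured genes). Those 4 were the small proline-rich genes Sprr2k (5.9 and 284), Sprr1a (40.2 and 152) and Sprr3 (10.4 and 60.2, at least 1.69-fold against the bound), and the late cornified envelope gene Lce1h (74.7 and 184). Filaggrin (Flg), the main matrix protein of cornified cells, read 0.6 and 1.6. The next 5 measured genes before S100a1 and the next 5 after S100a10 held 0 genes at least 2-fold higher and 1 called lower, the natriuretic peptide receptor gene Npr1 (43.9 and 9.1), whose fold against the bound was at least 1.23. Chtop, the measured gene next to S100a1, read 3404 and 2355. The 6 other measured genes between the outermost measured S100 genes lie within the same run but lack these symbols, so they were left out of that count. Among them Prr9 (16.2 and 133) was at least 2-fold higher.

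**Figure D3:**
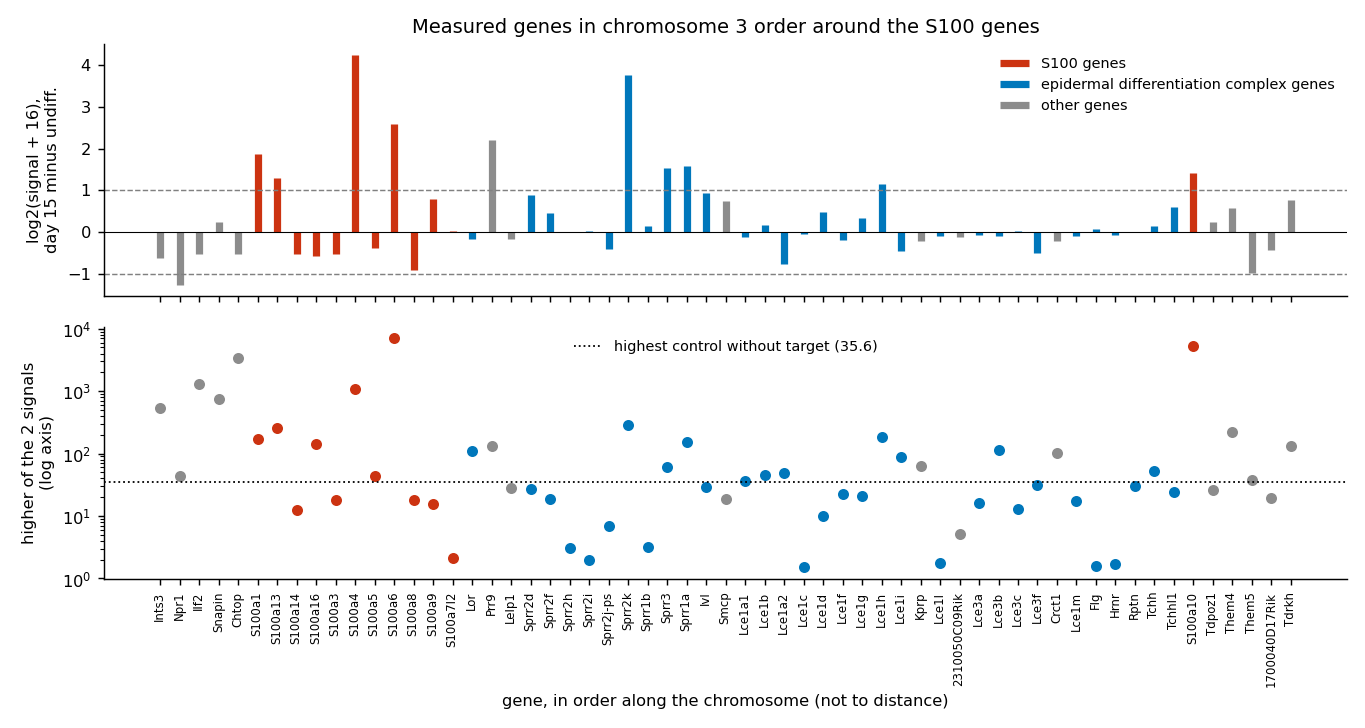
Measured genes of chromosome 3 from 5 before S100a1 to 5 after S100a10, in order and not to distance. Upper panel, difference of log2(signal + 16), day 15 minus undifferentiated, with dashed lines at 2-fold; lower panel, the higher of both signals (log axis) with the control bound of 35.6 dotted; S100a4 and S100a6 lie above the upper dashed line beside S100a3, S100a5 and S100a8.

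The proteins that S100 dimers bind were next set beside them. Of 17 listed partners and receptors 16 were measured, and 8 were at least 2-fold higher at day 15 (50%), 0 at least 2-fold lower (median log2 difference 1.09). Of all measured genes 12.8% were higher and 7.56% lower. Annexin genes were among the largest gains: Anxa5 read 155 and 4649 (30.0-fold), Anxa1, whose product pairs with S100A11, 369 and 8506 (23.1-fold), and Anxa2, the partner of S100A10, 426 and 8302 (19.5-fold). A dimmer Anxa2 probe set was 3.07-fold higher. S100a10 itself gained 2.67-fold, so the log2 differences of the partners were 1.41 and 4.24. Ahnak, the giant scaffold protein gene whose product binds the S100A10 and annexin A2 complex, read 516 and 3433 (6.65-fold). Plat, which encodes tissue plasminogen activator, a ligand of that complex, read 31.8 and 1424 (at least 40.0-fold). Tgm2, the tissue transglutaminase gene, read 64.2 and 445 (6.94-fold).

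Partners of other members did not all gain. Myh9, the myosin heavy chain bound by S100A4, read 1580.2 and 3637 (2.30-fold), and its other 3 probe sets above the bound were between 1.66-fold and 2.95-fold higher. Cacybp, the calcyclin-binding protein gene, read 7584 and 4368 (1.74-fold lower), and Sugt1, another S100A6 partner gene, read 4618 and 3033 (1.52-fold lower), while S100a6 was 6.12-fold higher. Fgf1, the growth factor released with S100A13, read 61.3 and 134 (2.19-fold, log2 difference 0.96). The cardiac ryanodine receptor gene Ryr2 read 44.9 and 56.4, close to the bound. The receptor genes for released S100 proteins were dim: Ager, which encodes RAGE, read 21.2 and 30.8, Tlr4 17.4 and 22.9, and Cd36 8.3 and 31.9, all below 35.6.

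Other EF-hand genes gained in a like share. Of 17 analysed, 8 were at least 2-fold higher (47.1%) and 0 at least 2-fold lower (median 0.97), against 12.8% and 7.56% of all measured genes. Calb2 (73.6 and 31.1) was at least 2.07-fold lower by signal but short of the call (log2 difference -0.93). A dimmer Capn1 probe set, not the one standing for the gene, was 2.68-fold lower (197.4 and 73.7, log2 difference -1.25). The calpain subunit gene Capn2 read 350.2 and 3109 (8.88-fold), the reticulocalbin gene Rcn3 205 and 1643 (8.03-fold), calumenin (Calu) 1166 and 4412 (3.78-fold) and the matrix protein gene Sparc 2288 and 8498 (3.71-fold). A dim Sparc probe set went the other way, at 68.3 and 13.7. Efhd2 (3.43-fold) and Rcn1 (3.05-fold) were also higher. Under control scaling 7 partners and 6 EF-hand genes were called higher, and 1 partner (Cacybp) and 2 EF-hand genes lower. Under quantile normalization 8 and 8 were called higher, and 0 and 2 lower.

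**Figure D4:**
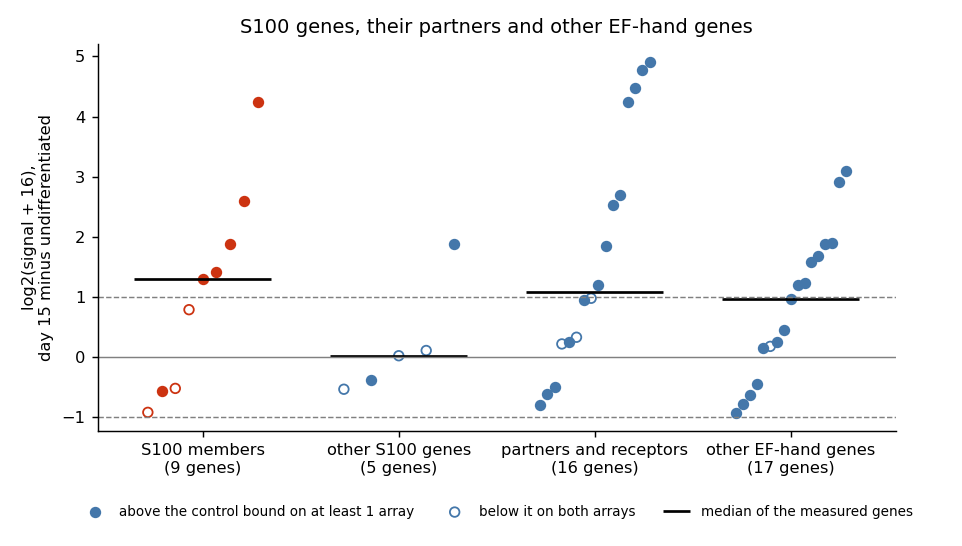
Differences of log2(signal + 16), day 15 minus undifferentiated, for the 9 S100 genes, 5 other S100 genes, 16 partners and receptors and 17 other EF-hand genes, 1 point per gene. Open points lie below the control bound on both arrays, bars are medians (1.30, 0.02, 1.09 and 0.97) and dashed lines mark 2-fold; Plat, Anxa5, Anxa1 and Anxa2 are the highest points of the partner column.

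Markers of the cell types known for each S100 gene were read on the same arrays. Each marker is given by its brightest probe set alone. The counts below stand against 12.8% higher and 7.56% lower among all measured genes. Since these are bulk RNA samples, more cells of a type and more RNA per cell cannot be told apart. Of 10 fibroblast and matrix markers 9 passed 2-fold upward, and their summed signal was 3394 before differentiation and 45607 after it. Vim, the intermediate filament gene of mesenchymal cells, read 3030.2 and 13529, and Thy1 read 143.5 and 144.5. No marker of this list was below the bound at day 15, and 5 of 10 were above it in undifferentiated cells. The part of these markers, and of feeder cells left over, in the S100a4 and S100a6 gains was not tested.

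Muscle markers were mixed. Of 8 cardiac and skeletal markers 3 were at least 2-fold higher, 1 at least 2-fold lower, and the summed signal was 447 before and 2425 after differentiation. Above the bound were 6 of the 8 in undifferentiated cells and 7 at day 15. Tnnt2, the cardiac troponin T gene, read 5.9 and 1229 (at least 34.5-fold higher), and Actc1, cardiac actin, 61.0 and 463 (7.58-fold). Ttn, the titin gene, read 102.8 and 25.8, at least 2.89-fold lower. Ttn has 6 probe sets and Tnnt2 has 3, and only the brightest of each is given. Nppa, Myh7, Myh6 and Ckm did not reach 2-fold, and the median log2 difference of the list was 0.64. The part of muscle cells in the S100a1 gain was not tested.

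Neutrophil and myeloid markers were partly below the bound. Of 14 measured neutrophil and myeloid markers 7 lay below the bound on both arrays, among them the granule protein genes Elane (12.3 and 21.2), Ltf (2.5 and 6.3) and Lcn2 (2.2 and 2.2), the leukocyte antigen gene Ptprc (4.8 and 14.4) and the colony-stimulating factor receptor gene Csf3r (30.9 and 11.1). Of the other granule genes, Mpo (45.5 and 42.1), Lyz2 (57.2 and 104) and Mmp9 (45.5 and 89.0) read above it on both arrays, and Ngp (44.3 and 21.1) on the undifferentiated array. The whole list summed to 570.1 before and 835 after differentiation. The members at least 2-fold higher were the macrophage genes Csf1r (59.6 and 276) and Tyrobp (13.2 and 98.4). Cd68, another macrophage gene of the list, went the other way. It read 238.6 and 118.3, a 2.02-fold lower signal that fell short of the call (log2 difference -0.92).

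Of 7 epidermal keratinocyte markers 0 were called higher and 1 lower, Krt1 (48.5 and 1.5, at least 1.36-fold against the bound). Trp63, Krt14 and Ivl lay below the bound on both arrays, while Krt10 (124.9 and 106.1), Lor (110.1 and 95.9) and Krt5 (60.2 and 61.3) lay above it. Of 6 simple epithelium markers 3 were at least 2-fold higher, the keratin genes Krt8, Krt18 and Krt19, and 2 at least 2-fold lower, Epcam and Cdh1. The summed signals before and after differentiation were 384 and 343 for the keratinocyte list and 7421 and 6966 for simple epithelium. Among smooth muscle markers 4 of 5 passed 2-fold upward (summed 757 and 19570), among visceral endoderm markers 3 of 4 (43.9 and 1593) and among glial and neural crest markers 1 of 4 measured (summed 604 and 439), with 1 of 4 lower, Foxd3 (461 and 179). The part of each of these in the S100 gains was not tested.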

How the data were processed

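Signals of 2 Affymetrix mouse arrays, 1 per condition, were used. The authors deposited linear signal intensity for 45101 probe sets, and per the labels' protocols biotinylated cRNA was made from column-purified total RNA. The summarising software is not given in the sources used here. Both arrays had a 2% trimmed mean of 250.0, so the deposited values were already scaled. The 64 control probe sets were set aside, 34945 probe sets named 1 gene, 932 named several and were not used, and 9160 had no gene named for them. Symbols were updated by gene identifier to RefSeq GRCm38.p6. The probe set with the highest mean of log2(signal + 16) stood for its gene, and 11960 of 18193 genes passed the filter. No depth applies to arrays, and their number limits the precision. The call was tried on simulated data, with changes well past 2-fold and noise smaller than the SD between probe sets. That says nothing of calls near 2-fold, such as those of S100a10 and S100a13. The text names all S100 genes and, from each partner, EF-hand and neighbour list, up to 6 genes past 2-fold with the largest difference. Other genes were named for their role, after their values were seen. The members and lists were chosen with earlier results of these data known. Alternatives covered filter, pseudocount, scaling and the probe set choice. Computation used Python 3.11.15, numpy 2.4.6 and pandas 2.3.3.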

Additional observations from a re-analysis of the deposited data

Results flagged for a closer look

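A probe set outside the gene values gave a strong signal. The probe set that names S100a11 also names the pseudogene S100a11-ps and Gm12854, so its signal cannot be assigned to one of them. It read 1850.5 in undifferentiated cells and 8253.8 at day 15, both above the control bound of 35.6, and the log2 difference was 2.15. It entered no count of S100 genes.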

How the results depend on the processing

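Across 9 alternatives the 9 gene differences, both counts, the median of the S100 genes and the share of all genes higher were recomputed. Of these values 107 were labelled the same, 2 moved, 3 stronger and 2 weaker, and none was reversed. Part of the 107 could not have changed, so that number does not measure stability. The filter does not enter a gene difference, so all gene differences were identical under both filter alternatives. Genes with a single probe set likewise kept their value under the mean over probe sets. A gene difference was the same if it kept its direction and its side of 2-fold. The median was the same if it moved by less than the SD between probe sets. Counts and shares were the same within a set ratio, so 5 and 4 genes called higher counted alike. With the filter at the 75th percentile 3 S100 genes were left, S100a4 only through its day 15 signal. All 3 were at least 2-fold higher, as were 13% of all genes above that filter. Because the filter uses the day 15 signal too, it favours genes that are high there. The median of the 3 was 2.60 against 1.64 for the 6 above the main filter, since fewer genes were kept. S100a13 was at 0.99 with quantile normalization and 0.94 with scaling on the hybridization controls, both short of 2-fold by the scaling itself. With a pseudocount of 1 the genes below the control bound passed 2-fold in both directions, S100a3 at -1.12, S100a8 at -2.70 and S100a9 at 2.30, since the smaller pseudocount enlarges dim ratios. Over all settings S100a4 ranged from 3.44 to 4.63, S100a6 from 2.21 to 2.68, S100a1 from 1.25 to 2.26, S100a10 from 1.02 to 1.53 and S100a16 from -0.89 to -0.41. Dropping the probe sets of suffix a, s and x removed S100a6, S100a8 and S100a16, so these have no value there. No paired analysis was possible because each condition has 1 array. Signals below 35.6 cannot be told from controls without target, which limits what can be said of S100a3, S100a8 and S100a9.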
